A study of Mus musculus with 6 samples.

Results

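The genes described here are the gasdermins and the core of the inflammasome in LPS-treated mTECs, 10 genes chosen by name from the 22442 genes of the deposited expression table. They are the pore-forming gasdermins Gsdma, Gsdmd and Gsdme, the caspases Casp1 and Casp4, the sensors Nlrp3 and Nlrp1b, the adaptor Pycard, the cytokine Il18 and the membrane-rupture protein Ninj1. All 10 symbols were found in the table. The values asked whether the tubular line carries RNA for every step of pyroptosis, and whether any member differed between the 2 groups of libraries.

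Pyroptosis is a lytic form of cell death. In the canonical route, a sensor such as Nlrp3 recruits the adaptor Asc, the product of Pycard, which activates caspase 1. In the non-canonical route, caspase 11, encoded in the mouse by Casp4, binds bacterial lipopolysaccharide directly. Either caspase cleaves gasdermin D into a fragment that opens pores in the plasma membrane, caspase 1 also matures interleukin 18, and Ninj1 then tears the membrane apart. In the kidney, this death of tubular cells has been linked to acute injury.

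RNA-seq was performed on 6 libraries of mTECs, a murine renal tubular epithelial line, 3 labelled LPS and 3 labelled LPSKD. The cells of every library were stimulated for 24 h with 20 μg/ml of LPS (lipopolysaccharide, from the bacterial outer membrane), so no group was without LPS. The LPS libraries received a negative control transfection and the LPSKD libraries an RNA for silencing Stat3. The labels call it an siRNA, while the paper's list of sequences gives only an shRNA for mouse Stat3. The methods call the line immortalised, whereas the labels describe cells sorted by magnet. Nothing in the labels says that the replicates were separate cultures, so the p-values measure the spread between these libraries, which may be technical.

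Stat3, the targeted gene, was at 34.6, 31.4 and 35.2 FPKM in the LPS libraries and at 30.8, 35.2 and 34.3 FPKM in the LPSKD libraries. FPKM is the number of fragments on a gene divided by gene length and by library size. The 2 groups overlapped, and the log2 fold change of LPSKD against LPS was -0.01 (95% CI -0.17 to 0.14, adjusted p = 0.944, limma). A fall of the Stat3 transcript was therefore not seen, and the lower end of the interval is a change of -11.2%. The paper reports its Stat3 knockdown in mTECs by real-time PCR and western blot, without saying whether those were the cultures sequenced. Why the transcript was not lower was not tested. The groups are called throughout the libraries labelled LPS and LPSKD. The library totals lay between 24084827 and 25422171 fragments. Of the markers of tubular epithelium, 10 of 10 had a mean of at least 0.5 FPKM, among them Epcam (291 to 331 FPKM), Cdh16 (177 to 222 FPKM) and Pax8 (69.6 to 103 FPKM). Between the groups 5 of the 10 passed, 4 higher and 1 lower in the LPSKD libraries, Pax8 (log2 fold change 0.39, adjusted p = 0.0084, limma) and Cdh16 (0.27, adjusted p = 0.0094) among the higher ones, against 3.23% of all genes tested. The 10 include Havcr1 (Kim1) and Lcn2, which the paper uses as injury markers, and Lcn2 was also among the higher ones (0.47, adjusted p = 0.000155, limma). Of 8 markers of differentiated tubule segments, 2 had a mean of at least 0.5 FPKM, and Slc34a1, Umod and Aqp2 were at 0 in all 6 libraries. Of these 2, Aqp1 passed as higher in the LPSKD libraries (log2 fold change 0.93, adjusted p = 0.0174, limma).

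The 10 members covered a wide range of levels. Ninj1 had the highest mean over the 6 libraries, 24.0 FPKM, and Gsdma followed at 10.3 FPKM. These 2 members lay above the median of all genes above 0, which was 8.44 FPKM. Casp4 was at 2.14 FPKM, Casp1 at 1.13 FPKM and Gsdmd at 0.592 FPKM. The other 5 members had means under 0.5 FPKM: Il18 at 0.411, Nlrp3 at 0.0907, Gsdme at 0.0784, Pycard at 0.0695 and Nlrp1b at 0.0276. The range over the 6 libraries of Ninj1, Gsdma and Casp4 did not overlap that of the next gene in the order, whereas from Casp1 downwards each range overlapped the next. Thus Gsdma, Gsdmd, both inflammatory caspases and the rupture protein were measured at or above 0.5 FPKM, and of the sensors Nlrp3 and Nlrp1b and the adaptor none was.

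**Figure D1:**
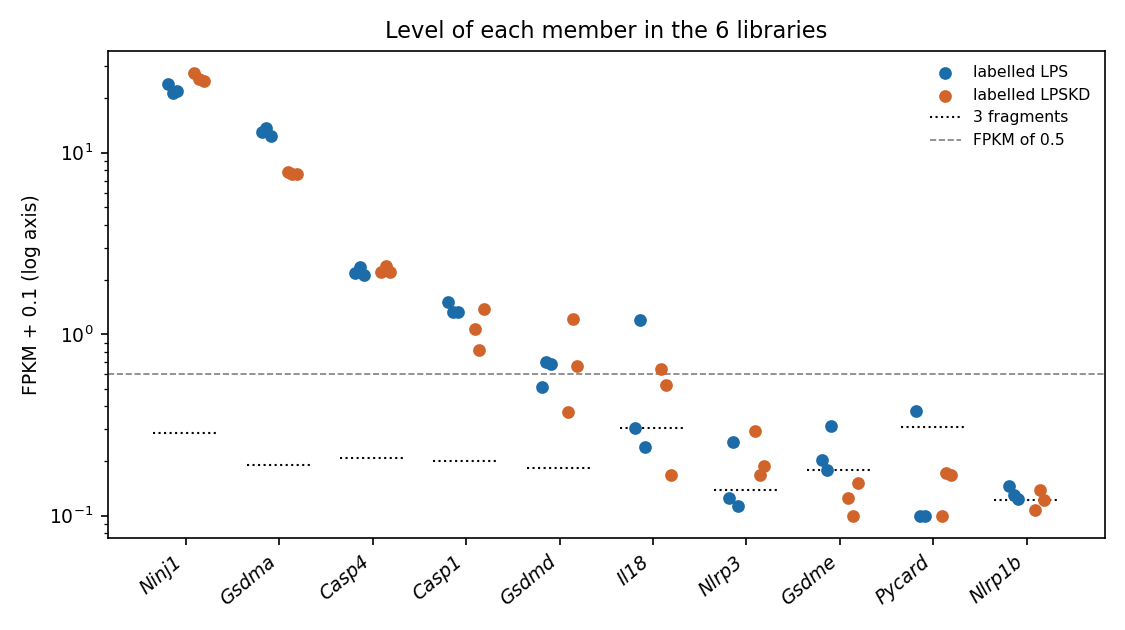
Level of each member in the 6 libraries, as FPKM plus 0.1 on a log axis, with blue points for the libraries labelled LPS and orange points for those labelled LPSKD. Dotted lines mark the level of 3 fragments for each gene and the dashed line a level of 0.5 FPKM. Ninj1 and Gsdma lie far above the rest, and Pycard has 3 libraries at 0.

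The low members rested on very few fragments. Whole fragments could be worked out from the FPKM values, and 5 of the 10 members had more than 3 fragments in each of the 6 libraries. These were Ninj1, Gsdma, Casp4, Casp1 and Gsdmd, the same 5 as at the level of 0.5 FPKM. The place of Gsdmd rested on LPSKD replicate 2, without which 4 members reached 0.5 FPKM. At 1 FPKM 4 members remained, and at 0.1 FPKM 6 were counted. A member can fall under such limits in a bulk sample because few cells carry the RNA or because each cell carries little, and these cannot be told apart.

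Sequence before the start of 3 members is shown because their levels span the range of the set: Ninj1 the highest, Casp1 between, and Pycard near 0. The bases are from RefSeq windows on GRCm38.p6, read 5′ to 3′ on the gene's own strand, with each CG dinucleotide in capitals. For Ninj1, 44 bases that lie inside the gene in the GENCODE M21 annotation were left out. The Ninj1 stretch is chr13:49187279-49187484 (+) with 23 CG in 206 bases, the Casp1 stretch is chr9:5298267-5298516 (+) with 1 CG in 250 bases, and the Pycard stretch is chr7:127993868-127994117 (-) with 2 CG in 250 bases.
Ninj1: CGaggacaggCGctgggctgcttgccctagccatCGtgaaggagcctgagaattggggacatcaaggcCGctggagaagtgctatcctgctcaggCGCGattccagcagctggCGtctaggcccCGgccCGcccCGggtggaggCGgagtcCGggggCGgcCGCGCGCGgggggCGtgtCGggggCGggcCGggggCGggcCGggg
Casp1: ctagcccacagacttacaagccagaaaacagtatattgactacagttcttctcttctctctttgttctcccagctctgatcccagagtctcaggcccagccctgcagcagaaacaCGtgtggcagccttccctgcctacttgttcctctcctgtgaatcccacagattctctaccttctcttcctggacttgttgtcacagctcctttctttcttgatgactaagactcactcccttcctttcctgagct
Pycard: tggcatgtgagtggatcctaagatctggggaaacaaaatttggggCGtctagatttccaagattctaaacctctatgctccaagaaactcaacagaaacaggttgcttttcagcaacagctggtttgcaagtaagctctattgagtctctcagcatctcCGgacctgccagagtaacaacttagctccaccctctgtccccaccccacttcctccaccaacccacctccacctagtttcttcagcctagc

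Over the whole 250 bases before its start, Ninj1 held 31 CG, more than 94.8% of the 32851 windows in the table, whose median was 6. The Casp1 window had more CG than 7.87% of windows and the Pycard window more than 18.8%. Gsdme, with a mean under 0.1 FPKM, held 15 CG before its RefSeq start, more than 72.7% of windows. A window rich in CG before a RefSeq start thus did not go with a high level in every member. The Gsdme window, chr6:50261770-50262019 (-), lies inside the gene in GENCODE M21, where the gene extends to 50263862. Whether these bases act as its promoter is not known. The letters TTCNNNGAA, the core motif of STAT factors, which reads the same on both strands, occurred in 0 of the 11 windows of the 8 members matched and in 7.02% of all windows. This says only that these letters are not in these windows. Gsdma and Gsdmd had no window.

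Among the gasdermins, Gsdma was the one in quantity. Gsdma (ENSMUSG00000017204, chr11:98664351-98677708 on GRCm38, plus strand) is the gasdermin best known from skin, where a streptococcal protease can cleave it. It was at 12.9, 13.5 and 12.3 FPKM in the LPS libraries, which are 429, 451 and 402 fragments. In the LPSKD libraries it was at 7.75, 7.53 and 7.58 FPKM, which are 259, 243 and 258 fragments. Every LPSKD library lay below every LPS library. Gsdma fell by 40.6% (95% CI -47.3% to -32.9%), a log2 fold change of -0.75 (SE 0.08) on the log2(FPKM + 0.1) scale with an adjusted p of 0.00157 (limma). The exact two-sided permutation test on the 6 values gave 0.1, the smallest p that 3 libraries against 3 allow.

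Part of the coding sequence of Gsdma is shared with its neighbours in the family. Of its 1308 stretches of 31 bases, 404 (30.89%) also occur in Gsdma2 or Gsdma3, and each of these had at most 1 fragment in any library. How fragments that match several genes were assigned is not given in the sources used here.

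Gsdmd, which the canonical and the non-canonical route both cleave, was far lower. It was at 0.412, 0.605 and 0.588 FPKM in the LPS libraries and at 0.274, 1.11 and 0.565 FPKM in the LPSKD libraries. The lowest and the highest of the 6 values were both in LPSKD libraries, so the groups overlapped. The log2 fold change was 0.09 with a 95% CI of -1.01 to 1.19 (adjusted p = 0.947, limma), an interval that spans a fall of -50.2% and a rise of 128%. These levels stood on 10 to 39 fragments a library. The 3 LPSKD libraries alone held 10, 39 and 21 fragments.

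Gsdme, a pore-forming gasdermin, was seen as 4, 3 and 8 fragments in the LPS libraries and 1, 0 and 2 in the LPSKD libraries. Its groups did not overlap, with 15 fragments in all against 3. The ratio of LPSKD to LPS, corrected for the library totals, was 0.199, with an exact 95% interval of 0.037 to 0.704 that covers counting error only. In the limma fit over all genes above 0, Gsdme had a log2 fold change of -0.86 (95% CI -1.53 to -0.19) with an adjusted p of 0.245, so it did not pass the test. The size depended on the pseudocount, with -0.14 at 1 and -2.22 at 0.01, and was -2.05 by voom (adjusted p = 0.190 to 0.447 over all alternatives).

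The gasdermin levels were summed over the 3 members and the 7 further gasdermin genes named below. This sum was 13.8 ± 0.730 FPKM (SD, n = 3) in the LPS libraries and 8.41 ± 0.383 FPKM (SD, n = 3) in the LPSKD libraries. The groups did not overlap (exact two-sided permutation p = 0.1, the smallest possible). This is no result separate from that of Gsdma, which made up most of the sum. Gsdma made up 93.4 ± 1.20% (SD, n = 3) of that sum in the LPS libraries and 90.8 ± 5.08% (SD, n = 3) in the LPSKD libraries. The shares overlapped and were lowest, at 85.2%, in LPSKD replicate 2, the library with the highest Gsdmd (exact permutation p = 0.5 for the shares). Within a library, Gsdma was 6.80 to 31.2 times as high as Gsdmd per length of coding sequence. The composition of the gasdermin RNA was thus dominated by Gsdma in every library, while its sum followed Gsdma down.

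Other gasdermin genes were low. Of the 7 further members of the family, Gsdma2, Gsdma3, Gsdmc, Gsdmc2, Gsdmc3, Gsdmc4 and Pjvk, 0 reached a mean of 0.5 FPKM. Pjvk had the highest mean of these, 0.114 FPKM, above that of Gsdme. Gsdmc, Gsdmc2 and Gsdmc3 were at 0 in all 6 libraries.

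Both inflammatory caspases were present at low levels. Casp1 (ENSMUSG00000025888, chr9:5298517-5307265, plus strand) encodes the protease that inflammasomes activate. It was at 1.40, 1.23 and 1.22 FPKM in the LPS libraries and at 0.962, 0.722 and 1.27 FPKM in the LPSKD libraries. LPSKD replicates 1 and 2 lay below all LPS libraries, but replicate 3 lay among them. The log2 fold change was -0.38 (95% CI -1.0 to 0.24, adjusted p = 0.518, limma), on 21 to 42 fragments a library. It was -0.19 without LPSKD replicate 2, -0.56 without LPSKD replicate 3 and -0.21 with a pseudocount of 1, and passed in none of the alternatives (adjusted p = 0.402 to 0.794).

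Casp4 (ENSMUSG00000033538, chr9:5308828-5336783, plus strand), the neighbour of Casp1 on the chromosome and the intracellular receptor for LPS, was the steadiest of the low members. It was at 2.08, 2.26 and 2.01 FPKM in the LPS libraries and at 2.11, 2.26 and 2.11 FPKM in the LPSKD libraries. The range of the LPSKD libraries lay almost wholly inside that of the LPS libraries. The log2 fold change was 0.03 (95% CI -0.34 to 0.39, adjusted p = 0.951, limma), which bounds a change to between -20.8% and 31.4%. Per length of coding sequence Casp4 exceeded Casp1 in each library, by 1.49 to 3.13 times. Per merged exon length, a scale added after seeing the data, the order turned, with Casp1 at a mean of 0.915 and Casp4 at 0.645.

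Of the sensors, Nlrp3, which responds to potassium efflux and other damage, was at 2, 12 and 1 fragments in the LPS libraries and at 15, 5 and 7 in the LPSKD libraries. The highest value stood at 0.194 FPKM, in LPSKD replicate 1. LPS replicate 2 lay inside the range of the LPSKD libraries, and the ratio of LPSKD to LPS fragments was 1.79 with an exact 95% interval of 0.921 to 3.63 (counting error only). The limma fit gave a log2 fold change of 0.45 (95% CI -0.44 to 1.34, adjusted p = 0.681).

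Nlrp1b, the rodent sensor of anthrax lethal factor, had 6, 4 and 3 fragments in the LPS libraries and 1, 5 and 3 in the LPSKD libraries. The groups overlapped, with a ratio of 0.690 and an exact 95% interval of 0.260 to 1.74. Of its stretches of 31 coding bases, 6.55% also occur in Nlrp1a or Nlrp1c-ps. The fit gave an adjusted p of 0.828 (limma).

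Pycard (ENSMUSG00000030793, chr7:127989708-127993867, minus strand), the adaptor through which Nlrp3 reaches caspase 1, was nearly unseen. It had 4 fragments in LPS replicate 1, 1 each in LPSKD replicates 2 and 3, and 0 in the other 3 libraries. Over all 6 libraries these 6 fragments correspond to 0.0697 FPKM, with an exact 95% Poisson interval of 0.0256 to 0.152 FPKM. A library with 0 fragments allows up to 3, which for this short coding sequence is 0.209 FPKM. The ratio of LPSKD to LPS was 0.498 with an exact 95% interval of 0.045 to 3.48, so no difference could be seen at this depth (adjusted p = 0.939, limma). Pycard is also the member whose count is least certain, since 43.9% of its coding stretches of 31 bases occur in Gm45205, a gene on the opposite strand that shares 485 exon bases with it. Whether the counting used strand is not given in the sources used here.

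Il18, the cytokine that caspase 1 matures, varied widely among replicates. It was at 0.205, 1.09 and 0.139 FPKM in the LPS libraries and at 0.544, 0.423 and 0.0668 FPKM in the LPSKD libraries. LPS replicate 2, with 16 fragments, was the highest, and LPSKD replicate 3, with 1, the lowest, so the groups overlapped. The ratio of LPSKD to LPS fragments was 0.712 with an exact 95% interval of 0.341 to 1.45, which leaves out the spread between replicates, and the adjusted p was 0.925 (limma).

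Ninj1 (ENSMUSG00000037966, chr13:49187485-49196244, plus strand), which ruptures the membrane after the pore has formed, was the most abundant member in every library. It was at 23.8, 21.1 and 21.9 FPKM in the LPS libraries and at 27.4, 25.3 and 24.7 FPKM in the LPSKD libraries. All LPSKD libraries lay above all LPS libraries. The log2 fold change was 0.21 (SE 0.07, 95% CI 0.06 to 0.37), or 15.8%, which did not pass after adjustment (adjusted p = 0.156, limma). The exact permutation test again gave its smallest value, 0.1.

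**Figure D2:**
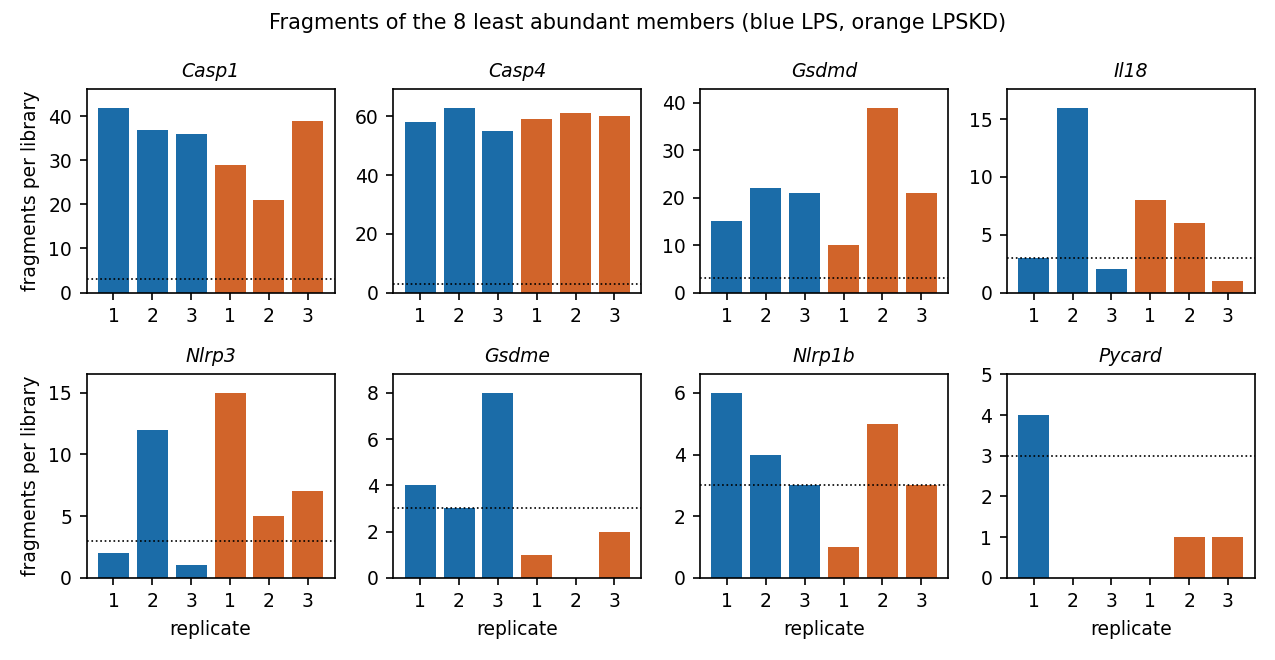
Fragments per library of the 8 members with the lowest levels, in blue for the libraries labelled LPS and orange for those labelled LPSKD, each axis starting at 0 and a dotted line at 3 fragments. Casp4 stays between 55 and 63 fragments, whereas Pycard has 4, 0 and 0 against 0, 1 and 1.

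Of the 10 members, 5 had a mean of at least 0.5 FPKM and were tested, and 1 of these, Gsdma, passed an adjusted p of 0.05. Over all 11723 genes tested 3.23% passed, 1.66% as lower (195 genes) and 1.57% as higher (184 genes) in the LPSKD libraries. By limma's voom on the recovered fragments 1 member passed, again Gsdma, against 5.1% of all genes. At an unadjusted p under 0.05 there were 2 members, Gsdma and Ninj1, against 17.6%. The groups did not overlap for 2 of the 5 members tested, Gsdma and Ninj1, against 23.8% of all genes tested. The median log2 fold change was 0.03 over the 5 members and -0.01 over all genes tested. With 5 genes, such a share says little about the set.

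**Figure D3:**
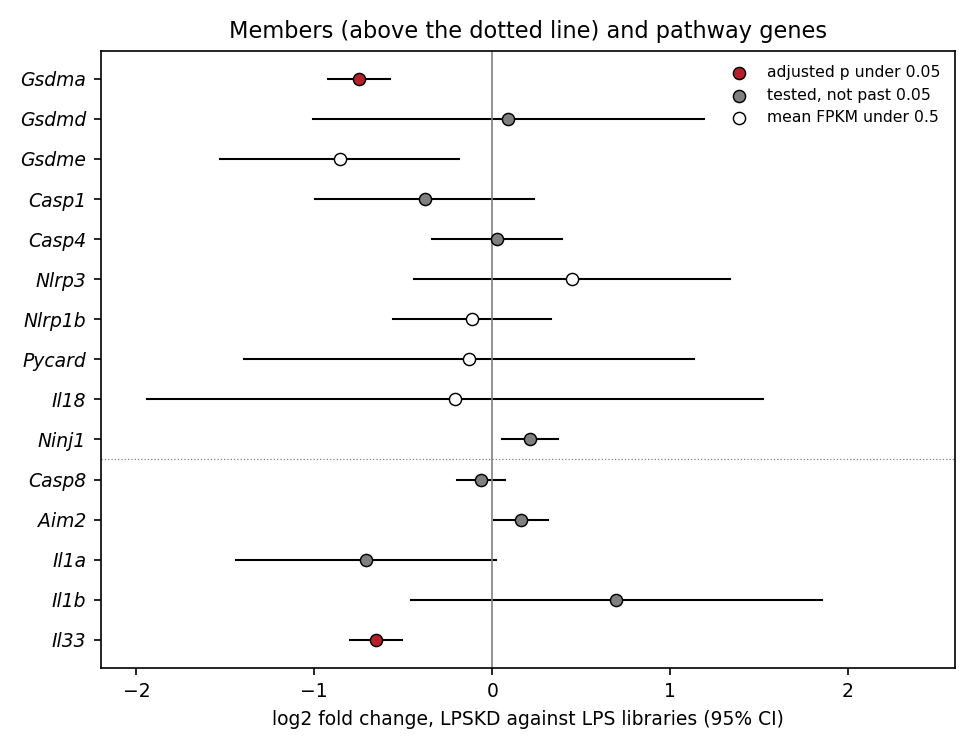
Log2 fold change of LPSKD against LPS on the log2(FPKM + 0.1) scale with its 95% confidence interval (limma), for the 10 members above the dotted line and 5 further pathway genes below it. Red points passed an adjusted p of 0.05, grey points were tested and did not, and open points had a mean under 0.5 FPKM. Gsdma at -0.75 and Il33 at -0.65 are the red points.

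The genes whose levels followed Gsdma most closely over the 6 libraries were Samd9l (Pearson r = 0.999), Ifi27 (r = 0.997) and Lcmt1 (r = 0.996). These are the 3 highest of 11723 genes and share the same 6 libraries and their 2 groups, so the values only describe likeness. Ifi27 went from 61.3, 70.2 and 62.0 FPKM in the LPS libraries to 19.2, 16.8 and 18.2 FPKM in the LPSKD libraries, a log2 fold change of -1.83. For Samd9l the log2 fold change was -0.68 and for Lcmt1 it was -0.18.

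Beyond the members, 54 other genes of the pathway were listed by role. Of these, 34 were tested, and 1 passed as lower and 0 as higher, against 3.23% of all genes tested in either direction. The groups did not overlap for 5 of the 34, against 23.8% of all genes tested. The median log2 fold change of the 34 was -0.03. The gene that passed was Il33, an alarmin of the interleukin 1 family that caspases can inactivate. Il33 was between 19.9 and 21.6 FPKM in the LPS libraries and between 12.7 and 13.4 FPKM in the LPSKD libraries, a log2 fold change of -0.65 (95% CI -0.80 to -0.51, adjusted p = 0.0013, limma).

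Of 13 further sensors and their receptors, 5 had a mean of at least 0.5 FPKM and none passed. Aim2, which senses cytosolic DNA and also needs Asc, stood out by level, at 14.5 ± 0.515 FPKM (SD, n = 3) in the LPS libraries and 16.2 ± 0.627 FPKM (SD, n = 3) in the LPSKD libraries. It was higher than Nlrp3 and Nlrp1b in every library, and its groups did not overlap, with the LPSKD libraries higher. The log2 fold change was 0.16 (95% CI 0.01 to 0.31) and did not pass (adjusted p = 0.250, limma). Nlrc4, the partner of the Naip receptors, had 0 to 7 fragments a library. A sensor was therefore measured well above 0.5 FPKM, but it was not one of the members.

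Of 5 other caspases, 5 were tested and none passed. Casp8, which can cleave gasdermin D, was at 47.1 to 55.1 FPKM, above both inflammatory caspases in every library. Its groups overlapped, and the log2 fold change was -0.06 (95% CI -0.20 to 0.07, adjusted p = 0.638, limma).

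The interleukin 1 genes Il1b and Il1a were low. Il1b, the cytokine precursor matured by caspase 1, was at 0.199 to 1.29 FPKM with a log2 fold change of 0.70 (95% CI -0.46 to 1.85, adjusted p = 0.527, limma). Il1a, an alarmin released through the same pores, was at 0.692 to 2.13 FPKM with a log2 fold change of -0.71 (95% CI -1.44 to 0.02, adjusted p = 0.297, limma). Both had groups that overlapped.

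By contrast, genes for membrane repair and for the Ragulator-Rag complex, which gasdermin D needs for pore formation, were among the highest of the list. All 8 were tested and none passed. The 3 highest of the 54 genes were Chmp4b (430 to 464 FPKM) and Chmp3 (132 to 140 FPKM), subunits of the membrane-repairing ESCRT machinery, and Rraga (101 to 108 FPKM), a Rag GTPase. Their log2 fold changes lay between -0.03 and 0.00.

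**Figure D4:**
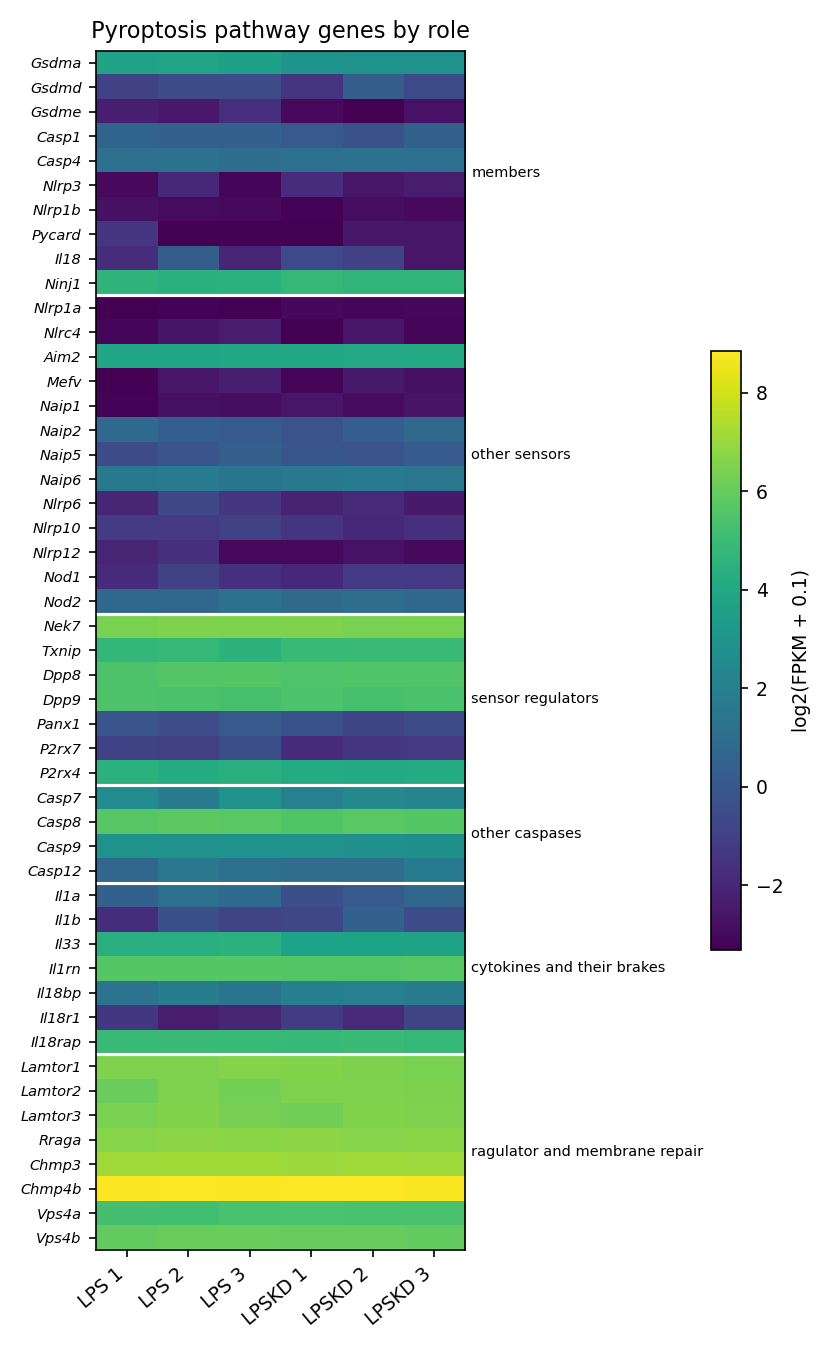
Level of the 10 members and of 39 other pathway genes in each of the 6 libraries, as log2(FPKM + 0.1), in rows grouped by role. The members hold 2 bright rows, Gsdma and Ninj1, whereas all 8 rows of the Ragulator and membrane repair group and the rows of Casp8 and Aim2 are bright in every library.

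Several members are best known from macrophages, so the markers of leukocytes were read beside them. Of 14 such markers, 10 had a mean of at least 0.5 FPKM and none was at 0 in all libraries. Csf1r was at 22.0 to 27.4 FPKM in the LPS libraries and at 32.7 to 33.8 FPKM in the LPSKD libraries, and passed as higher (log2 fold change 0.45, adjusted p = 0.0208, limma). The defining markers Ptprc (0.372 to 1.08 FPKM) and Adgre1 (0.530 to 1.29 FPKM) stood at the level of Casp1 and Gsdmd. The sum of the 14 markers was 41.5 to 43.7 FPKM in the LPS libraries and 47.1 to 50.9 FPKM in the LPSKD libraries, and without Csf1r it was 16.3 to 20.1 and 13.6 to 17.2 FPKM. The library with the highest sum without Csf1r, 20.1 FPKM, was LPS replicate 2. It had the highest Il18 (1.09 FPKM), with Nlrp3 at 0.156 FPKM and Gsdmd at 0.605 FPKM. The library with the lowest sum, 13.6 FPKM, was LPSKD replicate 1, which had the lowest Gsdmd (0.274 FPKM) and the highest Nlrp3 (0.194 FPKM). LPSKD replicate 2, with the highest Gsdmd (1.11 FPKM) and the lowest Casp1 (0.722 FPKM), had a sum of 17.1 FPKM. The part of leukocyte RNA in the low members was not tested. All 5 markers of fibroblasts and pericytes had a mean of at least 0.5 FPKM. Their sum was 24.1 to 31.4 FPKM in the LPS libraries and 16.5 to 30.5 FPKM in the LPSKD libraries. Of 5 endothelial markers, 3 reached that mean. The 5 summed to 2.67 to 5.21 FPKM in the LPS libraries and to 3.12 to 5.32 FPKM in the LPSKD libraries. The part of such cells in the members was not tested.

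Of 4 keratinocyte markers, a cell type that normally expresses Gsdma, 1 had a mean of at least 0.5 FPKM, Krt5 at 2.56 to 3.31 FPKM. Their sum was 3.08 to 3.71 FPKM in the LPS libraries and 3.70 to 4.15 FPKM in the LPSKD libraries, most of it Krt5. The part of such cells in the level of Gsdma was not tested. The genes for recognising LPS at the cell surface, by contrast, were all at or above 0.5 FPKM, 4 of 4. Among them were Tlr4 at 16.5 to 19.2 FPKM and Cd14 at 63.1 to 76.2 FPKM. None passed the test, but Cd14 lay just above the threshold (log2 fold change 0.19, adjusted p = 0.0500007, limma). The groups did not overlap for 2 of the 4, against 23.8% of all genes tested.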

How the data were processed

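The authors deposited FPKM values, 1 per gene and library, with replicates kept apart. Per the submitters' processing notes, HISAT2 2.0, StringTie 1.3.0 and Bowtie 0.12.2 were used, and mm8 and GRCh38.p13 are named as builds without a role. Of 22442 identifiers, 22399 matched GENCODE M21 (GRCm38), whose coordinates are given. Fragments were recovered as FPKM times coding length times library total: of 16837 genes above 0, 97.7% were whole (within 0.001) at a length of the merged coding bases plus 0 to 10, 380 at another length and 1 at none.

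limma 3.58.1 in R 4.3.3 (lmFit, eBayes with trend) was fitted to log2(FPKM + 0.1) for 11723 genes with a mean of at least 0.5 FPKM, with Benjamini-Hochberg adjustment at 0.05. The pseudocount understates changes of low genes. The 5 members under that mean were read from a fit on all 16837 genes above 0. Exact permutation tests were two-sided over 20 assignments. Intervals of fragments are exact (Poisson or conditional binomial) and cover counting error only, as does the floor of 3 fragments. Other steps used Python 3.11.15, numpy 2.4.6, pandas 2.3.3, scipy 1.17.1 and matplotlib 3.10.9. The fit was also run on simulated data, with changes placed only in genes well covered by fragments. It therefore does not speak to the members with few fragments.

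The members, the 54 pathway genes and the 50 markers in 7 lists were chosen with earlier results of these data known. Genes named are Stat3, the members, pathway genes that passed, Casp8, Il1b, Il1a and Nlrc4. Also named are the 3 pathway genes with the highest mean, the 3 genes most like Gsdma, defining markers and some markers above 0.5 FPKM. Aim2 and the further gasdermins were chosen after their values were seen, as were the markers named at 0. A pathway gene covered by the naming rule is not reported here. Alternatives were pseudocounts of 1 and 0.01, filters at 1 and 0.1 FPKM and none, quantile normalization, median centring, no trend, a replicate block, voom on recovered fragments and leaving out each library.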

Additional observations from a re-analysis of the deposited data

How the results depend on the processing

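Gsdma passed the test and stayed lower under all 16 alternatives, with log2 fold changes of -0.78 to -0.69 and adjusted p of 0.000406 to 0.0151 (limma), and it was the 1 member called in each of them. Ninj1 was higher in all 16 and passed in none (adjusted p = 0.0953 to 0.390). The estimates of 4 members changed sign: Gsdmd (-0.33 to 0.51 when 1 library was left out, -0.06 without LPS replicate 1, -0.33 without LPSKD replicate 2), Casp4 (-0.0066 to 0.074, -0.0066 without LPS replicate 3, -0.0039 without LPSKD replicate 2), Pycard (-0.45 to 0.51, 0.51 without LPS replicate 1, 0.13 without LPSKD replicate 1, and 0.38 with a pseudocount of 0.01) and Il18 (-0.65 to 0.51, 0.51 without LPS replicate 2, 0.39 without LPSKD replicate 3). None of these passed under any setting. The difference in the share of Gsdma was -2.64 percentage points and ranged from -4.77 to 0.169 when 1 library was left out, and it turned to 0.169 without LPSKD replicate 2. Over the whole table, 379 genes passed, 140 without the trend, 598 by voom on the recovered fragments and 158 to 357 when 1 library was left out (158 without LPS replicate 3). With the replicate number as a block 213 passed. Same-numbered libraries did not deviate together (correlations of -0.0426 to -0.00388), so no effect shared by number was seen. Whether the numbers mark paired samples cannot be told from these correlations. With the fragments divided by the merged exon length, a setting chosen after seeing the data, 4 members reached 0.5, since Gsdmd came to 0.364, and Casp1 (0.915) stood above Casp4 (0.645). The cause of these shifts was not tested. The level of 5 members under 0.5 FPKM is limited by depth, at 0 to 16 fragments a library.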
